A study of Bos taurus with 16 samples.

Results

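The 10 genes MYH11, LMOD1, ACTA2, TAGLN, CNN1, MYLK, DES, RGS5, PDGFRB and NOTCH3 mark the mural cells of blood vessels, that is vascular smooth muscle cells and pericytes. They were chosen by symbol, with earlier results of these data known, from a table of 27233 genes, where each has 1 row. All 10 passed the filter on low values. The tissue was corpus luteum of cattle (Bos taurus) that were bred naturally and then inseminated and were found to be pregnant, and 16 libraries of mRNA were made, 4 for each sampling time (14, 17, 20 or 23 days after breeding). The labels name no strain, age or treatment, and no non-pregnant animals enter here, so that day of pregnancy cannot be told apart from the age of the corpus luteum. The question was how mRNA abundance changes over early pregnancy.

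The corpus luteum is the progesterone-secreting gland that forms from the ruptured follicle, and it is among the most densely vascularised tissues of the body. Pericytes wrap the capillaries and smooth muscle cells wrap the arterioles and venules. Pericytes are recruited by endothelial PDGF-B, which binds the receptor PDGFRB, and endothelial Jagged ligands act on NOTCH3 to maintain mural cells. The contractile programme of smooth muscle is switched on by the transcription factor SRF with its coactivator myocardin (MYOCD).

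Values are RPKM, read counts scaled to gene length and to the total of the library, which allows levels of different genes to be compared. Fold changes are differences of log2(RPKM + 1) with standard errors from limma, fitted across 13361 genes and adjusted by Benjamini-Hochberg over all of them, and a gene was called at an adjusted p under 0.05. Libraries held 28.7 to 44.6 M reads, recovered from the RPKM steps, and the 10 genes rested on medians of 112 reads (DES) to 15822 reads (PDGFRB) per library. Among steroidogenic genes, HSD3B1 stood far above the mural genes on each day, with day means of 4759 to 5832 RPKM, while FDXR had 267 to 347. In bulk tissue, fewer cells of a type and less RNA per cell cannot be told apart.

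Tested with limma, 0 of the 10 genes was called in any of the 6 comparisons between days or in the F test over the 4 days, and 0 of the 13361 genes was called in any of these (0% in each). The smallest adjusted p of a member was 0.199, for MYH11 on day 20 against day 14. At an unadjusted p under 0.05, day 20 against day 14 had 3 members higher (MYH11, LMOD1 and TAGLN) and 0 lower, where 4.28% of all genes were higher and 3.83% lower. Day 23 against day 14 had 2 higher, MYH11 and LMOD1, and 0 lower (4.31% and 8.26% of all genes). For day 23 against day 17 there were 0 higher and 2 lower, PDGFRB and NOTCH3 (2.85% and 8.84% of all genes). Between day 23 and day 20 there were 0 higher and 1 lower, ACTA2 (2.45% and 4.54% of all genes). Day 17 against day 14 had 0 either way (4.92% of all genes higher, 2.65% lower), and so had day 20 against day 17 (2.84% higher, 5.32% lower). In the F test 2 members, MYH11 and LMOD1, had an unadjusted p under 0.05 (11.7% of all genes). With limma's voom on the recovered reads, 0 members were again called, and each comparison had as many members at an unadjusted p under 0.05 as above. Over all alternatives the unadjusted counts ranged from 0 to 2 on day 17 against day 14, from 2 to 4 on day 20 against day 14 and from 0 to 3 on day 23 against day 14. They ranged from 0 to 2 on day 20 against day 17, from 1 to 3 on day 23 against day 17, from 0 to 4 on day 23 against day 20 and from 1 to 4 in the F test. The count for day 23 against day 14 was 0 without day 14 replicate 4, without day 23 replicate 3 or without day 23 replicate 4. The count for day 23 against day 20 was 4 without day 20 replicate 2 or without day 23 replicate 3, and 0 without any 1 of the other 3 libraries of either day. In the authors' deposited table, whose header does not name the comparison, MYH11 had an adjusted p of 0.0262 and LMOD1 of 0.0316, while the other 8 members had 0.423 to 0.862 and 3.33% of all genes with a value were under 0.05.

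**Figure D1:**
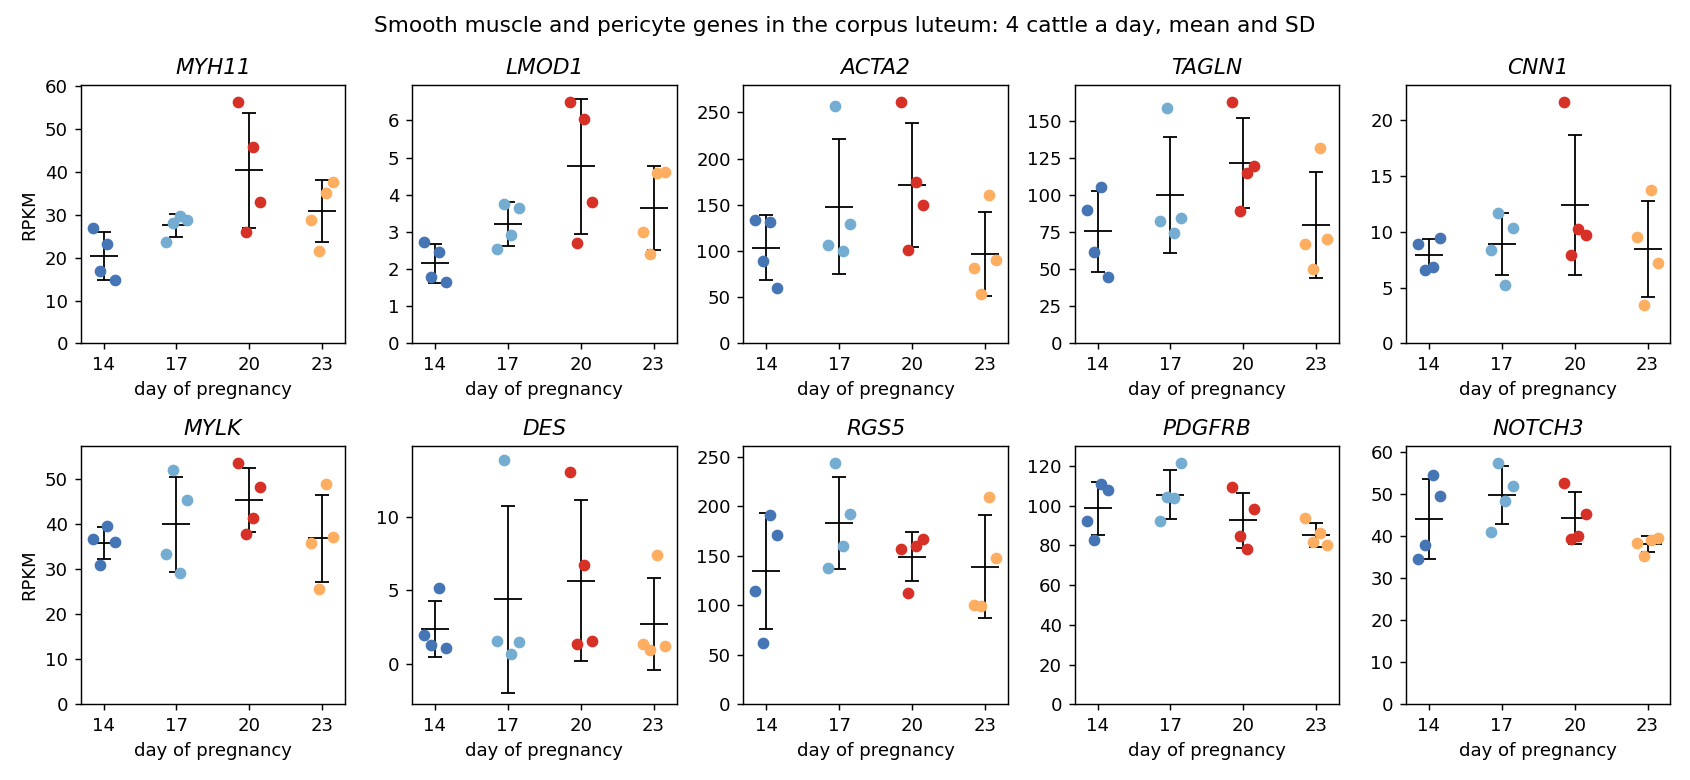
RPKM (vertical axes, each on its own scale) of the 10 genes by day of pregnancy. Points are the 4 cattle of a day, bars the mean and SD. MYH11 and LMOD1 had their highest means on day 20 and their lowest on day 14, DES was above 5 RPKM in 5 libraries only, and PDGFRB and NOTCH3 had their lowest means on day 23.

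The myosin heavy chain of smooth muscle, MYH11, had 26.8, 16.9, 23.1 and 14.7 RPKM on day 14 and 23.6, 28.04, 29.7 and 28.9 on day 17. Day 20 libraries had 56.3, 26.1, 45.8 and 33.1 and day 23 libraries 28.9, 21.6, 35.1 and 37.7. In 3 of 4 day 20 libraries it was above all 4 of day 14, and replicate 2 of day 20 overlapped them. The mean on day 20 was 40.3 ± 13.4 RPKM, against 20.4 ± 5.58 on day 14 (SD, n = 4), a log2 fold change of 0.93 ± 0.23 (unadjusted p = 0.0011, adjusted p = 0.199 in limma), which ranks 73rd of the 13361 genes by p. On day 23 the mean was 30.8 ± 7.21 RPKM, against the same 20.4 on day 14 (0.58 ± 0.23, adjusted p = 0.309). Day 20 and day 23 are set against the same 4 day 14 libraries. The difference between day 23 and day 20 was -0.35 ± 0.23 (adjusted p = 0.802), and ranged from -0.53 to -0.17 with 1 library left out (day 20 replicate 2 and day 20 replicate 1).

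LMOD1, leiomodin 1, which nucleates actin filaments in smooth muscle, was lower in level, with its highest mean also on day 20 and its lowest on day 14. It had 2.74, 1.80, 2.45 and 1.65 RPKM on day 14 and 2.55, 3.76, 2.91 and 3.63 on day 17. Later values were 6.50, 2.71, 6.03 and 3.80 at day 20, then 2.99, 2.39, 4.59 and 4.61 at day 23. As for MYH11, 3 of 4 day 20 libraries lay above the range of day 14 and replicate 2 of day 20 (2.71) lay within it. Its log2 fold change was 0.82 ± 0.22 on day 20 against day 14 (unadjusted p = 0.0021, adjusted p = 0.244) and -0.29 ± 0.22 on day 23 against day 20 (adjusted p = 0.834). At this level the added 1 RPKM shrinks fold changes. The day means were 4.76 ± 1.80 RPKM on day 20, against 2.16 ± 0.52 on day 14. With voom on the recovered reads the first value was 1.12, where MYH11 had 0.96. The second value ranged from -0.48 to -0.14 when the same libraries were left out. MYH11 and LMOD1 were related from animal to animal: over the 16 libraries Pearson's r was 0.97 and Spearman's rho 0.974. Their permutation p was 1e-05, the smallest that 100000 resamples can give, and 0.00012 (r) and 0.00018 (rho) after adjustment over the 36 pairs of members compared. The log2 ratio of MYH11 to LMOD1 within a library averaged 3.23 ± 0.06, 3.11 ± 0.21, 3.11 ± 0.14 and 3.10 ± 0.15 from the first to the last day sampled (SD, n = 4).

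ACTA2, smooth muscle alpha-actin, was the most abundant contractile member, with 133, 89.6, 131 and 59.8 RPKM on day 14 and 106, 256, 100.3 and 129 on day 17. For day 20 the values were 261, 101, 175 and 150.0, and for day 23 81.6, 53.8, 161 and 89.8. The days overlapped, although 3 of 4 day 23 libraries lay below all of day 20. The log2 fold change was 0.72 ± 0.38 on day 20 against day 14 (172 ± 67.1 RPKM on day 20, 103 ± 35.4 on day 14, adjusted p = 0.679) and -0.85 ± 0.38 on day 23 against day 20 (96.5 ± 45.6 RPKM on day 23, 172 ± 67.1 on day 20, unadjusted p = 0.039, adjusted p = 0.677). On day 23 against day 14 it was -0.14 ± 0.38 (adjusted p = 0.921), where MYH11 had 0.58 ± 0.23. The log2 ratio of MYH11 to ACTA2 within a library was -1.50, -1.32, -2.195 and -1.25 on day 23 and -2.31, -2.41, -2.504 and -2.03 on day 14. In 3 of 4 day 23 libraries it was above the range of day 14, and this ratio, which does not depend on scaling between libraries, was not tested.

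TAGLN, transgelin, an actin-binding protein of contractile smooth muscle, followed ACTA2 across animals with r = 0.969 and rho = 0.974 (adjusted permutation p = 0.00012 and 0.00018), and with r = 0.953 without the 2 libraries farthest from the median. It had 89.9, 61.5, 105.5 and 44.9 RPKM on day 14 and 82.8, 158, 74.6 and 84.7 on day 17. Day 20 libraries had 163, 89.0, 115 and 119.5 and day 23 libraries 67.1, 50.3, 132 and 70.6. In 3 of 4 day 20 libraries it was above all of day 14, and replicate 2 was not. The log2 fold change on day 20 against day 14 was 0.72 ± 0.32 (122 ± 30.6 RPKM on day 20, 75.5 ± 27.3 on day 14, unadjusted p = 0.038, adjusted p = 0.576), and on day 23 against day 20 it was -0.66 ± 0.32 (adjusted p = 0.709).

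CNN1, calponin 1, which binds actin and restrains myosin, ranged from 3.43 to 21.6 RPKM over the 16 libraries. Its day means were 7.94 ± 1.44, 8.91 ± 2.81, 12.4 ± 6.24 and 8.46 ± 4.32 RPKM on days 14, 17, 20 and 23 (SD, n = 4), and the highest value of day 20, 21.6, was in replicate 1 while the other 3 had 7.91, 10.3 and 9.73. The log2 fold change was 0.50 ± 0.34 on day 20 against day 14 (adjusted p = 0.778) and -0.53 ± 0.34 on day 23 against day 20 (adjusted p = 0.797). Without day 20 replicate 1 these values were 0.21 and -0.245, and without day 23 replicate 2 the second was -0.21. MYLK, the kinase that phosphorylates the regulatory light chain of myosin and starts contraction, varied least among the contractile members, 2.1-fold between its lowest and its highest library. Its day means were 35.7 ± 3.55, 39.9 ± 10.6, 45.2 ± 7.09 and 36.8 ± 9.60 RPKM. Its log2 fold change was 0.32 ± 0.19 on day 20 against day 14 (adjusted p = 0.726) and -0.31 ± 0.19 on day 23 against day 20 (adjusted p = 0.781), where it was -0.15 without day 23 replicate 2. CNN1 and MYLK were also related (r = 0.881, rho = 0.844, adjusted permutation p = 0.00012 and 0.00072).

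DES, desmin, the intermediate filament of muscle cells, differed more between animals of a day than between days. It had 1.93, 1.29, 5.18 and 1.09 RPKM on day 14 and 1.52, 13.9, 0.662 and 1.46 on day 17. Later values were 13.02, 1.34, 6.73 and 1.55 at day 20, then 1.34, 0.914, 7.38 and 1.21 at day 23. In 5 libraries it was between 5.18 and 13.9 RPKM and in the other 11 between 0.662 and 1.93, with none in between, and each day had at least 1 library of the high range. The log2 fold change on day 20 against day 14 was 0.72 ± 0.71 (adjusted p = 0.874) and on day 23 against day 20 -0.74 ± 0.71 (adjusted p = 0.866). Without day 20 replicate 1 these values were 0.23 and -0.25, and without day 20 replicate 2 they were 1.095 and -1.11. For day 23 against day 20 the value was -1.23 without day 23 replicate 3 and -1.14 with voom. Of the high libraries, day 17 replicate 2 was the highest of its day for 8 of the 10 members, day 20 replicate 1 for 9, day 14 replicate 3 and day 23 replicate 3 for 6 each, and day 20 replicate 3 for 0. DES, by which these libraries were picked, is itself counted in all of these but the last, and the members are correlated. At the other end, replicate 2 of day 20 and replicate 2 of day 23 were each the lowest of their day for 9 members. The 10 genes took between 0.1386% and 0.2932% of all reads of a library, with the lowest share in day 23 replicate 2 and the highest in day 20 replicate 1.

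**Figure D2:**
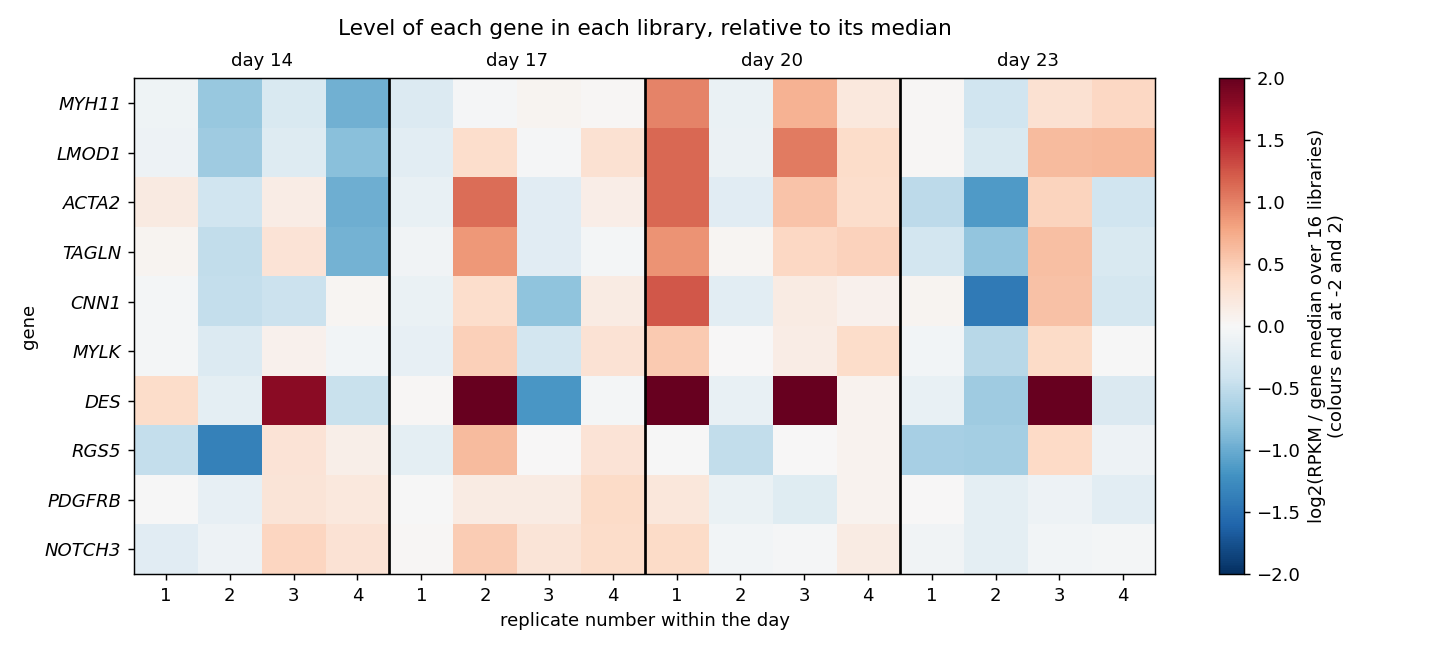
Colour gives log2 of RPKM over the median of the gene across 16 libraries, with genes in rows and libraries in columns, grouped by day, and colours ending at -2 and 2. DES is far above its median in 5 libraries spread over the 4 days, ACTA2 and TAGLN share their highs and lows, and PDGFRB and NOTCH3 differ little between libraries.

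RGS5, a regulator of G protein signalling that marks pericytes, was the most abundant of the 10 genes with a mean of 151 RPKM. It had 114, 62.0, 191 and 171 RPKM on day 14 and 137, 244, 160 and 192 on day 17. For day 20 the values were 157, 113, 159 and 167, and for day 23 99.995, 98.7, 209 and 148. All 6 pairs of days overlapped, and day 14 alone held values from 62.0 to 191 RPKM. Its largest contrast was day 17 against day 14, with 183 ± 46.2 RPKM on day 17, against 134 ± 58.4 on day 14, and a log2 fold change of 0.53 ± 0.32 (adjusted p = 0.696). For day 20 against day 14 the value was 0.25 ± 0.32 (adjusted p = 0.914). Without day 14 replicate 2 these values were 0.21 and -0.07, and without day 14 replicate 3 the second was 0.46. For day 23 against day 20 it was -0.15 ± 0.32 (adjusted p = 0.945), with a range of -0.37 to -0.02 when day 23 replicate 3 or day 23 replicate 2 was left out.

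PDGFRB, the receptor for PDGF-B, was the steadiest member, 1.55-fold between its lowest and highest library. It had 92.4, 82.8, 111 and 108 RPKM on day 14 and 92.1, 105, 104 and 122 on day 17. Day 20 libraries had 109, 84.5, 78.3 and 98.2 and day 23 libraries 93.6, 81.5, 86.3 and 80.0. In 3 of 4 day 23 libraries it was below all of day 17, and replicate 1 of day 23 was not. The mean was 85.3 ± 6.12 RPKM on day 23, against 106 ± 12.2 on day 17 (log2 fold change -0.30 ± 0.12, unadjusted p = 0.023, adjusted p = 0.342). The values for day 20 against day 14 and for day 23 against day 20 were -0.09 ± 0.12 and -0.11 ± 0.12 (adjusted p = 0.921 and 0.889). With 1 library left out they ranged from -0.175 (without day 20 replicate 1) to -0.017 (without day 20 replicate 3) and from -0.18 (without day 20 replicate 3) to -0.02 (without day 20 replicate 1).

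NOTCH3, the Notch receptor of mural cells, had 34.5, 37.9, 54.6 and 49.5 RPKM on day 14 and 41.1, 57.5, 48.3 and 52.0 on day 17. Later values were 52.7, 39.2, 39.9 and 45.2 at day 20, then 38.4, 35.3, 39.1 and 39.6 at day 23. The 4 day 23 libraries lay below the 4 of day 17, the only pair of days among all members and comparisons whose libraries did not overlap. Such a separation in this direction was found in 5.24% of all genes. The mean was 38.1 ± 1.95 RPKM on day 23, against 49.7 ± 6.88 on day 17 (log2 fold change -0.37 ± 0.14, unadjusted p = 0.019, adjusted p = 0.316). For day 20 against day 14 it was 0.02 ± 0.14 (adjusted p = 0.991), and for day 23 against day 20 -0.20 ± 0.14 (adjusted p = 0.806). Without day 20 replicate 1 these values were -0.07 and -0.12. PDGFRB and NOTCH3 were related across the libraries (r = 0.835, rho = 0.732, adjusted permutation p = 0.0006 and 0.0083), and so did RGS5 and NOTCH3 (r = 0.702, rho = 0.738, adjusted permutation p = 0.006 and 0.0083).

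**Figure D3:**
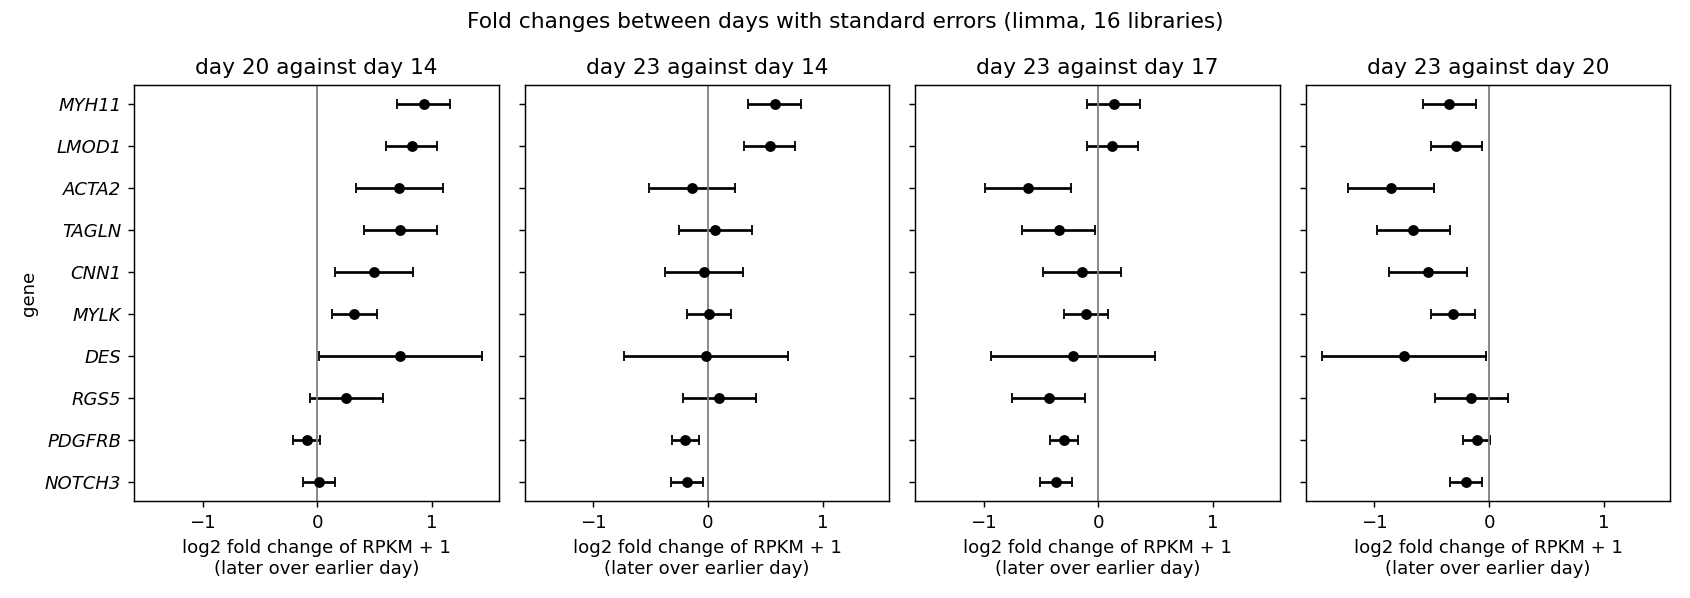
Log2 fold change of RPKM + 1 (horizontal axis, later over earlier day) with standard errors from limma for the 10 genes in 4 of the 6 comparisons. Of the 10 genes, 9 have positive values on day 20 against day 14, from 0.02 to 0.93, and 10 have negative values on day 23 against day 20, down to -0.85; none was called.

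Side by side, day 20 against day 14 had positive values in 9 of 10 members (45.2% of all genes) with a median of 0.61, where the median of all genes was -0.02. Day 17 against day 14 had them in 10 of 10 members (53.5% of all genes), with medians of 0.31 and 0.01. Positive values were also found in 5 of 10 members on day 23 against day 14 (43.3% of all genes) and in 7 of 10 on day 20 against day 17 (42.9% of all genes). Negative values were found in 10 of 10 members on day 23 against day 20 (55.1% of all genes), with medians of -0.33 and -0.02. On day 23 against day 17 they were found in 8 of 10 (60% of all genes), MYH11 and LMOD1 being the positive ones. The members are correlated across animals, so their counts are not counts of independent genes, and the comparisons share libraries.

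Across the 16 libraries, 20 of the 36 pairs among 9 members had an adjusted permutation p under 0.05 for Pearson's r, and 18 for r and rho alike. DES was left out because its libraries fall into separate ranges. Libraries share their scaling in all pairs. The share of such pairs among other genes was not computed, so whether these counts are particular to the members is unknown. By r with MYH11 among the tested genes, MYH11 itself counted, LMOD1 ranked 2, TAGLN 63, ACTA2 79, MYLK 211 and CNN1 231. Ranked likewise by r with RGS5, NOTCH3 was at 49, MYLK at 104, TAGLN at 391, ACTA2 at 454 and PDGFRB at 533. The contractile members MYH11, LMOD1, ACTA2, TAGLN, CNN1 and MYLK were related in each of their pairs, with r between 0.567 (MYH11 and CNN1) and 0.97. MYH11 and ACTA2 had r = 0.681 and rho = 0.612 (adjusted permutation p = 0.0096 and 0.031), with r = 0.444 without the 2 libraries farthest from the median and 0.762 for deviations from the day means. No relation was called for MYH11 with PDGFRB (r = -0.059, rho = -0.065, adjusted permutation p = 0.83 and 0.84) or NOTCH3 (r = 0.095, rho = 0.171, adjusted permutation p = 0.77 and 0.56). The same held for MYH11 with RGS5, at r = 0.359 and rho = 0.288 (adjusted permutation p = 0.21 and 0.33). Without the same 2 libraries, those farthest from the MYH11 median, r was 0.569 with RGS5, above the 0.444 with ACTA2. It was -0.129 with PDGFRB and 0.052 with NOTCH3, and none of these was tested. For deviations from the day means r was 0.228 with PDGFRB, 0.245 with NOTCH3 and 0.396 with RGS5, and these values were not tested. Of the other contractile members, MYLK was related to RGS5 by both measures, with r = 0.66 and rho = 0.662 (adjusted permutation p = 0.013 and 0.016). For r only, ACTA2 (r = 0.549, rho = 0.547, 0.049 and 0.053) and TAGLN (r = 0.566, rho = 0.535, 0.043 and 0.057) were under 0.05. Neither measure was under it for LMOD1 (r = 0.453, rho = 0.341, 0.11 and 0.25) or CNN1 (r = 0.448, rho = 0.553, 0.12 and 0.051). RGS5 and PDGFRB had r = 0.533 and rho = 0.574 (adjusted permutation p = 0.056 and 0.046).

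**Figure D4:**
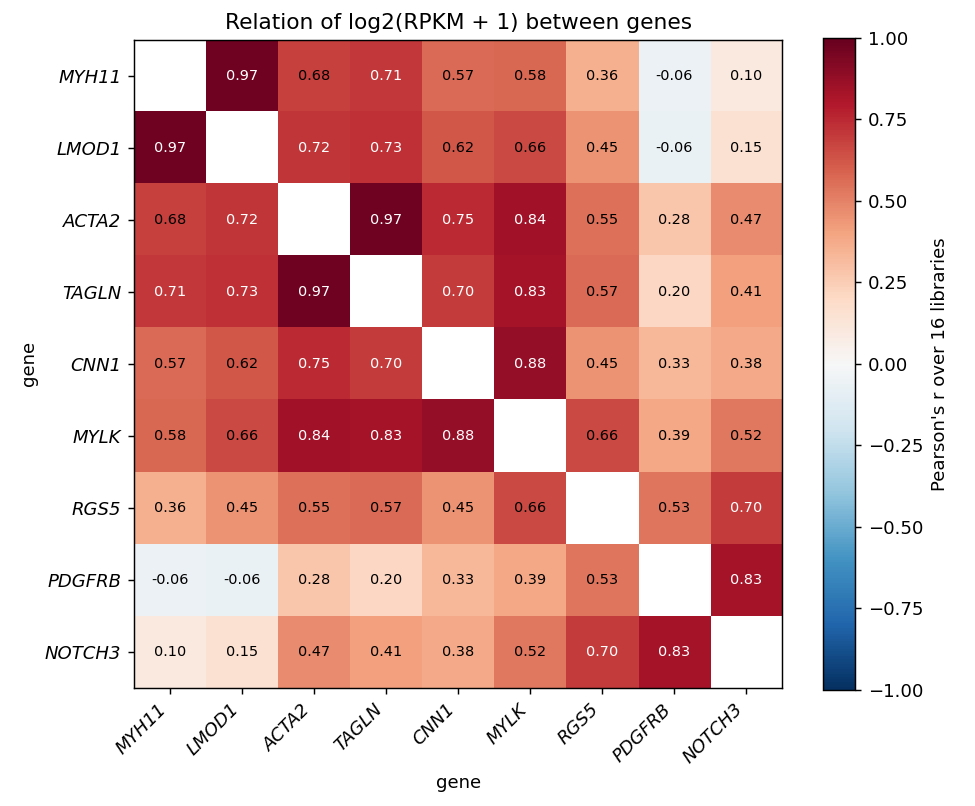
Pearson's r of log2(RPKM + 1) over 16 libraries for the 36 pairs of 9 genes, with colours from -1 to 1. The highest values are those of MYH11 with LMOD1 (0.97) and of ACTA2 with TAGLN (0.969), PDGFRB and NOTCH3 stand together at 0.835, and MYH11 with PDGFRB is at -0.059.

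Of all other tested genes, the 5 most like MYH11 over the 16 libraries were SBSPON (r = 0.899), GPBAR1 (0.883), MFAP4 (0.881), PDLIM3 (0.878) and KCNMB1 (0.877). MFAP4 is a microfibril protein of elastic vessel walls, PDLIM3 an actin-associated protein of muscle and KCNMB1 the beta subunit of the large-conductance potassium channel of smooth muscle. The 5 most like RGS5 were HEYL (0.868), GPR21 (0.845), ZFPM2 (0.839), RRAS2 (0.82) and INPP5F (0.814), of which HEYL is a Notch-induced transcriptional repressor. The 5 most like PDGFRB were CD93 (0.909), TRERF1 (0.887), KCNJ8 (0.882), AJUBA (0.88) and SMTN (0.878), where CD93 is an endothelial lectin, KCNJ8 the potassium channel subunit of pericytes and SMTN smoothelin, a cytoskeletal protein of contractile smooth muscle. These are the highest values among 13361 genes and carry no test.

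Among other genes of the contractile apparatus, 28 of 30 were tested and 0 was called in any comparison by limma. On day 20 against day 14, 26 of 28 had positive values (45.2% of all genes) with a median of 0.19, and 7 were higher and 0 lower at an unadjusted p under 0.05 (4.28% and 3.83% of all genes). On day 23 against day 20, 26 of 28 had negative values (55.1% of all genes) with a median of -0.19, and 0 were higher and 5 lower (2.45% and 4.54% of all genes). The 3 most abundant differed little. MYL6, a myosin light chain shared with non-muscle cells, had 1005 ± 46.6 RPKM on day 20, against 991 ± 54.2 on day 14. CALD1, caldesmon, had 276 ± 24.8 on day 20, against 274 ± 22.3 on day 14, and MYL9, the smooth muscle regulatory light chain, 259 ± 27.0 on day 20, against 232 ± 18.6 on day 14 (adjusted p = 0.978, 0.993 and 0.847). Of genes singled out after their values were seen, TPM2, a tropomyosin, had 58.3 ± 9.80 RPKM on day 20, against 39.1 ± 5.28 on day 14, and PDLIM3 26.7 ± 8.37 on day 20, against 13.9 ± 3.34 on day 14. ACTG2, the gamma-actin of visceral smooth muscle, had 56.8, 12.6, 29.1 and 24.7 RPKM on day 20 and 22.4, 13.6, 15.3 and 7.28 on day 14. ACTA2 and ACTG2 are near-identical actins whose reads counting can split, so their separate values are uncertain. The striated muscle actins ACTA1 and ACTC1 had day means of 0.0626 to 0.229 and 0.0398 to 0.133 RPKM.

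Among the regulators of that programme, 6 of 9 symbols were tested, where MRTFA and MRTFB were also listed under older names, and 0 was called. SRF itself had 17.9 ± 1.98, 15.2 ± 1.41, 21.2 ± 3.04 and 16.2 ± 3.67 RPKM on days 14, 17, 20 and 23, its coactivator MRTFA 19.2 ± 0.56, 21.8 ± 1.79, 18.8 ± 2.95 and 19.6 ± 1.74, and ELK1, which competes with myocardin for SRF, 33.7 ± 6.47, 31.9 ± 5.23, 33.2 ± 5.35 and 33.7 ± 3.94. MYOCD was below the filter and is named after its values were seen. It had 0.407, 0.390, 0.155 and 0.201 RPKM on day 14 and 0.488, 0.438, 0.486 and 0.703 on day 17. For day 20 the values were 1.36, 0.666, 0.659 and 0.982, and for day 23 0.562, 0.145, 0.932 and 0.967. These values rest on 16 to 204 reads per library. All 4 libraries of day 20 and all 4 of day 17 were above the 4 of day 14, which held for 2.33% and 2.06% of the genes that passed the filter, and those of day 23 overlapped each of the other days. In a fit without the filter, over 21090 genes, its log2 fold change on day 20 against day 14 was 0.56 ± 0.16 (unadjusted p = 0.0031, adjusted p = 0.362 in limma). Below 1 RPKM the added 1 shrinks this value strongly. The day means of MYOCD were 0.916 ± 0.33 RPKM on day 20, against 0.288 ± 0.13 on day 14.

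Of 20 further pericyte genes, 16 were tested and 0 was called. On day 23 against day 17, 16 of 16 had negative values (60% of all genes) with a median of -0.32 (median of all genes -0.04), and 8 were lower at an unadjusted p under 0.05 (8.84% of all genes). CD248, endosialin, had 21.6 ± 4.27 RPKM on day 23, against 37.0 ± 5.91 on day 17 (log2 fold change -0.76, adjusted p = 0.136). MCAM had 38.7 ± 3.25 RPKM on day 23, against 53.5 ± 12.7 on day 17, and HIGD1B 25.3 ± 1.37 on day 23, against 32.3 ± 3.98 on day 17 (adjusted p = 0.317 and 0.539). KCNJ8, whose pattern was among those most like PDGFRB, had 16.02 ± 1.73 RPKM on day 23, against 24.2 ± 3.59 on day 17 (adjusted p = 0.14). CSPG4, the NG2 proteoglycan of pericytes, had 5.14 ± 0.57 RPKM on day 23, against 8.22 ± 1.45 on day 17, and was picked after its values were seen. On day 20 against day 14 the pericyte genes had 5 positive values (45.2% of all genes), 11 negative values and a median of -0.08. At an unadjusted p under 0.05 in limma, 2 were higher and 0 lower (4.28% and 3.83% of all genes).

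The ligands of the receptors described above were also measured. Among 6 PDGF genes, 0 was called. PDGFB had 41.5 ± 20.9, 33.1 ± 4.09, 34.6 ± 6.62 and 26.8 ± 2.08 RPKM on days 14, 17, 20 and 23, PDGFC 29.6 ± 3.39, 28.7 ± 4.47, 32.9 ± 5.05 and 27.98 ± 5.28, and PDGFD 25.9 ± 3.09, 27.7 ± 5.82, 26.5 ± 2.95 and 30.4 ± 3.33. Among 14 Notch ligands, receptors and targets, 0 was called, and on day 23 against day 17 11 had negative values (60% of all genes) with a median of -0.30. HEYL had 25.7 ± 4.42 RPKM on day 23, against 36.5 ± 6.02 on day 17 (adjusted p = 0.354), JAG1, a ligand of NOTCH3, 16.4 ± 2.38 on day 23, against 21.0 ± 1.73 on day 17 (adjusted p = 0.513), and NOTCH2 22.9 ± 4.01 on day 23, against 20.0 ± 2.78 on day 17 (adjusted p = 0.786). Of 9 other genes of the RGS family 7 were tested and 0 called. RGS3 had 14.7 ± 3.44, 16.8 ± 0.70, 12.8 ± 1.68 and 12.3 ± 2.40 RPKM on days 14, 17, 20 and 23. RGS2 and RGS16 had 18.3 ± 25.8 and 16.4 ± 20.5 RPKM on day 20, against 4.97 ± 3.44 and 4.04 ± 0.64 on day 14, with an SD above the mean on day 20.

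**Figure D5:**
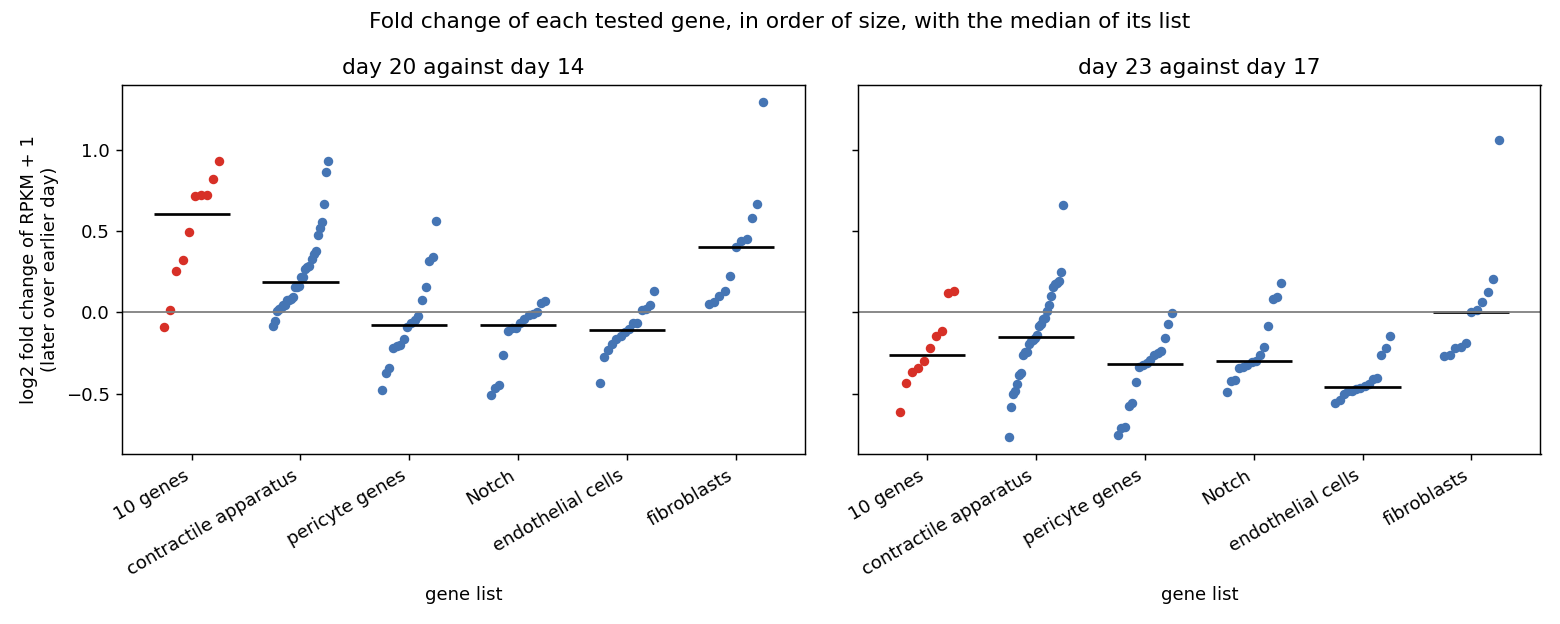
Log2 fold change of RPKM + 1 (vertical axis, later over earlier day) of each tested gene in the 10 genes and 5 other lists, in order of size, with a line at the median. On day 20 against day 14 the medians are 0.61 for the 10 genes, 0.19 for the contractile apparatus and -0.08 for pericyte genes; on day 23 against day 17 they are -0.26, -0.15 and -0.32, with -0.46 for endothelial markers.

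The summed levels of markers of other cells also differed between libraries, and 0 of these markers was called. Fibroblast markers, 11 of 11 tested, had positive values in 11 on day 20 against day 14 (45.2% of all genes) with a median of 0.40, and their summed level was 3903 to 6883 RPKM on day 20, against 3522 to 6047 on day 14. By library it was 6047 in day 14 replicate 3, 7972 in day 17 replicate 2 and 6832 in day 23 replicate 3, each the highest of its day and high in DES. In day 20 replicates 1 and 3, also high in DES, it was 6067 and 3903, and the highest of that day was 6883 in replicate 2. The sum is carried largely by the collagens COL1A1, COL3A1 and COL1A2, with means of 1356, 1304 and 1002 RPKM over the 16 libraries. Leukocyte markers, 8 of 9 tested, summed to 76.3 to 116 RPKM on day 20, against 62.1 to 91.6 on day 14, with 8 positive values (45.2% of all genes). Their median was 0.49, and 5 were higher and 0 lower at an unadjusted p under 0.05 in limma (4.28% and 3.83% of all genes). Endothelial markers, 14 of 14 tested, had negative values in 14 on day 23 against day 17 (60% of all genes) with a median of -0.46, and summed to 504.5 to 563 RPKM on day 23, against 664 to 792 on day 17. Luteal cell markers, 9 of 10 tested, summed to 18830 to 23040 RPKM on day 23, against 15970 to 21800 on day 17. Of these 9 genes, 6 had positive values (40% of all genes) and 3 negative. At an unadjusted p under 0.05 in limma 1 was higher, STAR, and 2 were lower, OXT and INHA (2.85% and 8.84% of all genes). No marker found was at 0 in all 16 libraries. The part of these cell types in the values of the mural genes was not tested.

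Of the markers of striated muscle, 1 of the 11 found passed the filter, TNNT1 (mean 17.1 RPKM over the 16 libraries). TNNT3 had a mean of 0.578 RPKM, and MYH7, MYH2, MYH1, CKM and MYL1 had means of 0.00206 to 0.0140 RPKM. Markers of the ovarian surface and mesothelium summed to 31.1 to 53.7 RPKM over all libraries. Red blood cell markers summed to 2.93 to 23.9 RPKM on day 17, against 1.54 to 2.28 on day 14, with HBB at 0.921 to 21.8 RPKM on day 17.

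In the RefSeq annotation of another build (ARS-UCD2.0), used for names only, 5 of the 10 genes share their span with another gene. MYH11 overlaps NDE1, which had 8.39 ± 0.54 RPKM on day 20, against 8.54 ± 1.31 on day 14. LMOD1 overlaps a long non-coding RNA, MYLK a pseudogene, RGS5 a tRNA and PDGFRB a microRNA gene. The strand setting used in counting is unknown here, so the values of overlapping genes are uncertain.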

How the data were processed

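Per the labels' protocols, total RNA of corpus luteum tissue, with an RQI (an RNA integrity score) above 8.5, went into TruSeq Stranded mRNA libraries. Tools listed in the submitters' processing notes are HISAT2 2.1.0, featureCounts 1.5.3, bedtools 2.26.0, DESeq2 and FastQC, with build ARS-UCD1.2 and no settings. The authors deposited RPKM of 27233 genes for 16 libraries, and for each gene a raw and an adjusted p-value whose comparison the header does not name. RPKM divides by gene length and 1 total per library, so genes that take more reads lower all others. Read counts were recovered from the RPKM steps (21090 of 21090 genes with a value above 0, tolerance 0.001).

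Genes with at least 1 RPKM in at least 4 of 16 libraries were tested, 13361 in all, on log2(RPKM + 1), which shrinks fold changes near and below 1 RPKM. Limma 3.58.1 in R 4.3.3 (intensity trend, 12 residual degrees of freedom, two-sided) fitted 1 model over all libraries, with p-values adjusted by Benjamini-Hochberg. It was tested on simulated data with independent noise, where 200 of 13361 genes picked at random were changed on day 20. Of log2 changes of 0.5, 50% were called on day 20 against day 14. Of changes of 1, 2 and -1, 90%, 96% and 86% were called. These shares are not those of the members. The p-values of limma set differences between days against the spread between cattle of the same day, moderated over all tested genes. Pairs of members were compared by a two-sided permutation test with 100000 resamples (Python 3.11.15, numpy 2.4.6), adjusted over 36 pairs. It permuted all 16 libraries regardless of day, so differences between days and between animals of a day both enter these p-values.

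All 10 members are named whatever their result. Of each of the 6 pathway lists the 3 genes with the highest mean RPKM are named, with others marked as chosen after their values were seen. The other 7 lists, of cell type markers, are given by their sums and counts, and the markers named from them were picked after their values were seen. Further, the 5 genes most alike by Pearson's r are named for MYH11, RGS5 and PDGFRB. Members and the 13 lists were chosen with earlier results of these data known. The fit was repeated with pseudocounts of 0.1 and 0.5, without the filter or with one on a mean of 5 RPKM, after median-ratio scaling or quantile normalization, with the replicate number as a block, without the trend, with voom on recovered reads, on 8 libraries alone, and leaving out 1 library at a time. A planned motif search in promoters was not run and no sequence is shown.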

Additional observations from a re-analysis of the deposited data

Results flagged for a closer look

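Each gene was looked at in each day for a library far from the other 3, 40 sets of 4 libraries in all, of which chance alone flags about 1 in 20. The gap to the nearest library, divided by the range, was above Dixon's 95% critical value in 3 sets. TAGLN had 158 RPKM in day 17 replicate 2 (0.88 of the range), where the other 3 had 74.6 to 84.7. DES had 13.9 RPKM in the same library (0.935 of the range) and 7.38 RPKM in day 23 replicate 3 (0.934). The summed level of fibroblast markers was also the highest of its day in these libraries, with 7972 and 6832 RPKM. That sum is carried largely by COL1A1, COL3A1 and COL1A2, and its part was not tested.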

How the results depend on the processing

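The count of called members stayed at 0 in all 181 values, over 7 tests and all alternatives run, and the smallest adjusted p of any followed fold change of a member was 0.159. Of 594 values of 23 fold changes under the alternatives, 590 kept their direction and 4 reversed, all with 1 library left out: NOTCH3 on day 20 against day 14 (0.02) ranged from -0.09 to 0.13, with -0.09 without day 14 replicate 1, -0.05 without day 14 replicate 2 and -0.07 without day 20 replicate 1, and RGS5 on day 20 against day 14 (0.25) from -0.073 to 0.464, the lowest without day 14 replicate 2. Over all genes, where the main counts are 0, day 20 against day 14 gave 1 with a pseudocount of 0.1 and 20 in a fit of the 8 libraries being compared, and day 23 against day 14 gave 2 without a filter, 2 with a mean RPKM of at least 5, 2 with the replicate block, 1 with voom and 13 in a fit of 8 libraries. With a library left out the counts over all genes ranged from 0 to 1 for day 17 against day 14, 0 to 32 for day 20 against day 14, 0 to 22 for day 23 against day 14, 0 to 1 for day 20 against day 17, 0 to 1 for day 23 against day 17, 0 to 1 for day 23 against day 20 and 0 to 22 in the F test over the 4 days. The 32 and both counts of 22 came without day 17 replicate 3. The cause was not tested. Correlations of deviations from the day means were -0.226 to 0.211 (median 0.0292) for the 24 pairs of libraries with the same replicate number. They were -0.255 to 0.212 (median -0.0066) for the 72 pairs with different numbers. Whether the replicate numbers pair the animals is not settled by these values. The replicate block called 0 members, as the main fit did. Depth is lowest for DES, with 48 reads in its lowest library.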
